A study of Rattus norvegicus with 6 samples.

Results

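The genes described here take up and hold calcium inside the skeletal muscle fibre, and were followed in the tibialis anterior of rats whose nerve had been cut and repaired. All probe sets annotated with the single symbol Sln, Pln, Atp2a1, Atp2a2, Casq1, Casq2 or Pvalb were taken, which gave 12 of the 15923 probe sets on the array and all 7 genes. Atp2a2 had 4 probe sets, Casq2 and Pln had a pair each, and the other genes had 1 each. Of the 12 probe sets, 9 were bright enough to be tested.

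The animals were 3 male Wistar rats numbered 4, 5 and 6, 8 weeks old per the labels, at a time point that was not settled here. Their peroneal nerve, which supplies the tibialis anterior, was cut and its end attached to the biceps femoris, and 4 weeks later both stumps were joined, after which the rats lived for 8 weeks as the labels were read. The ipsilateral group is the tibialis anterior of that leg in each rat (n = 3 libraries), and the contralateral group is the same muscle of the other leg of the same rats (n = 3 libraries), taken from titles marked Cont. All animals had ketamine and xylazine anaesthesia, no unoperated animal entered the comparison, and the muscles of a rat were compared with each other. Each of the 6 libraries was 1 array of total RNA from muscle tissue, so fewer cells of a type and less RNA per cell cannot be told apart.

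Contraction starts when calcium leaves the sarcoplasmic reticulum, and the fibre relaxes when calcium pumps carry it back. Fast fibres rely on the pump SERCA1, encoded by Atp2a1, while slow fibres and the heart rely on SERCA2, encoded by Atp2a2. The small membrane proteins sarcolipin (Sln) and phospholamban (Pln) bind these pumps and restrain them. Inside the reticulum calcium is held by calsequestrin, of which Casq1 encodes the main skeletal form and Casq2 the form of heart and slow muscle, and in the cytosol of fast fibres it is buffered by parvalbumin (Pvalb).

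In the leg with the repaired nerve, Sln, the slow pump gene Atp2a2 and Casq2 had the highest values in animals 5 and 6, at 2.13 to 8.38 times the contralateral muscle for the brightest probe set of each. In animal 4 the same probe sets were at 1.06, 0.994 and 1.2 times the contralateral muscle. Casq1 was nearly level in every animal, and Pvalb differed in sign between animals. Atp2a1 was lower in every animal, at 0.849, 0.654 and 0.982 times the contralateral muscle in animals 4, 5 and 6. None of the 9 tested member probe sets passed an adjusted p of 0.05 in limma's paired fit, where 0 of 9519 tested probe sets did (0.0%). At an unadjusted p under 0.05 there were 4 of the 9, all higher ipsilaterally (Sln, 1 probe set of Atp2a2 and both of Casq2), against 6.36% of all tested probe sets, with 3.57% in that direction and 2.78% in the other. Differences below are log2 ratios of the ipsilateral to the contralateral muscle, computed after adding a pseudocount (15.8), and the standard error (SE) is limma's over 3 pairs. Intensities of different probe sets are not on a common scale, so no level of a gene is set against that of another.

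**Figure D1:**
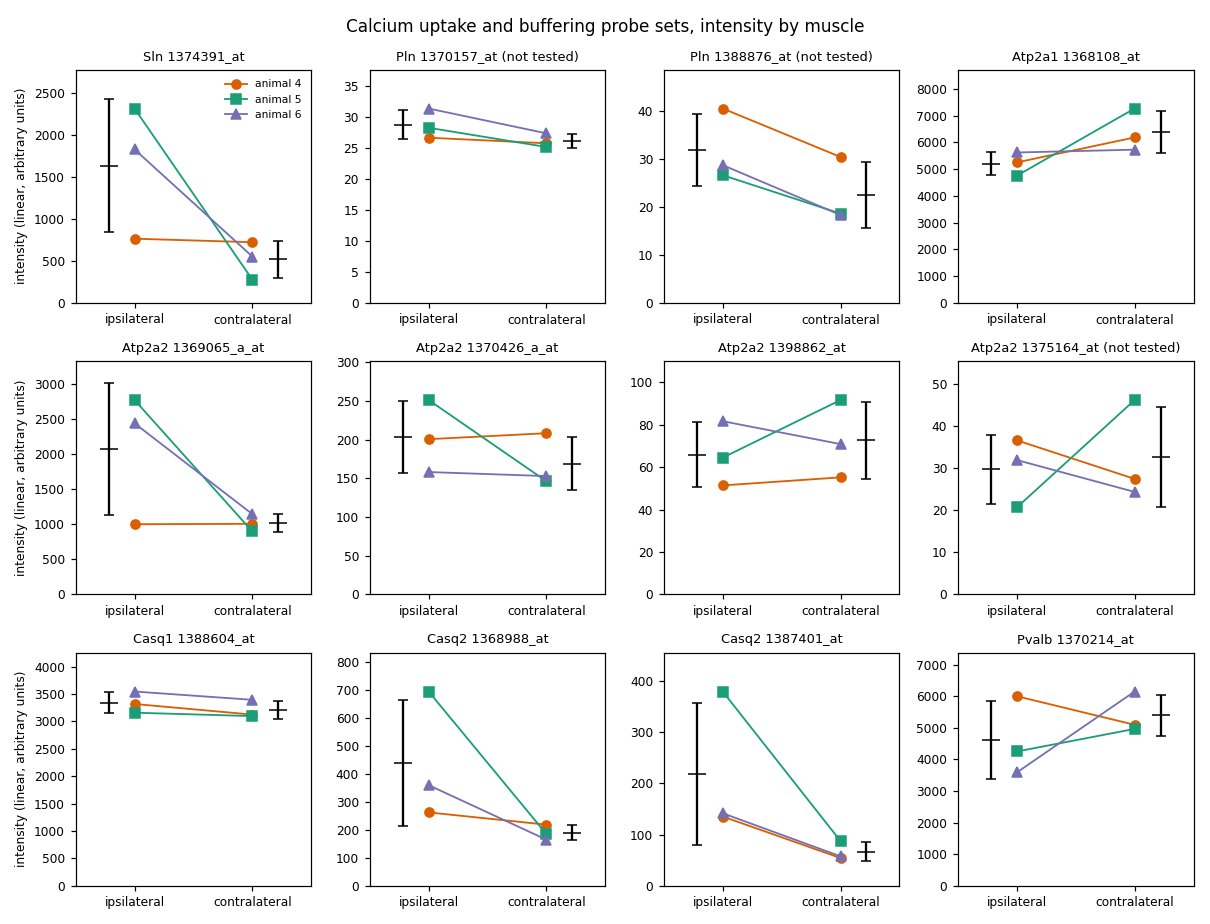
Intensity (linear, arbitrary units) of the 12 member probe sets in the ipsilateral (left) and contralateral (right) muscle. Lines join the muscles of an animal, and the bars at the sides are the mean ± SD of 3 libraries. The lines of animals 5 and 6 drop steeply to the contralateral side for Sln, for Atp2a2 1369065_a_at and for both probe sets of Casq2, whereas that of animal 4 is nearly flat for Sln and for Atp2a2 1369065_a_at.

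Of the regulators of the pumps, Sln had the larger difference. Sln had intensities of 762.3, 2310.3 and 1824.4 in ipsilateral muscles of animals 4, 5 and 6, against 720.5, 275.8 and 550.5 in their contralateral muscles. The groups did not overlap, but ipsilateral 4 and contralateral 4 were next to each other, and the lowest and the highest value both came from animal 5. Groups without overlap and with the ipsilateral side higher were found for 4.74% of tested probe sets. The mean was 1632 ± 792 ipsilaterally and 516 ± 224 contralaterally (SD, n = 3 each), and the log2 difference was 1.59 (SE 0.41, 95% interval 0.67 to 2.52, limma adjusted p = 0.499). Only 8 of the 9519 tested probe sets had a larger positive difference. Within animals the log2 difference was 0.08, 3.0 and 1.7 in animals 4, 5 and 6. Without animal 4 it was 2.35 (limma adjusted p = 0.00061). Without animal 5 it was 0.89 and without animal 6 it was 1.54, and neither passed the adjusted threshold. Each of these fits had 1 residual degree of freedom.

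Pln, which encodes phospholamban, was dim on all arrays. Its probe set 1370157_at read 26.6, 28.2 and 31.3 in ipsilateral muscles, against 25.7, 25.1 and 27.3 in contralateral muscles. Its probe set 1388876_at read 40.5, 26.6 and 28.7 ipsilaterally, against 30.4, 18.6 and 18.3 contralaterally. Both were higher on the ipsilateral side in all 3 animals, by ratios of 1.04 to 1.57, and the groups overlapped for both. All values lay below the filter's intensity of 42.4, so neither was tested, and of the 6347 probe sets below it 10.6% were also higher in all 3 animals. In a fit without the filter the log2 differences were 0.09 (SE 0.16, limma adjusted p = 0.963) and 0.32 (SE 0.16, limma adjusted p = 0.879). The Sln difference minus that of the brighter Pln probe set was 0.05, 2.89 and 1.57 in animals 4, 5 and 6, with a mean of 1.5 ± 1.42 (SD, n = 3 animals). The exact sign-flip permutation test (two-sided) gave p = 0.25, the smallest that 3 animals allow, so it could not pass 0.05. Without animal 5 the mean was 0.81, and with both Pln probe sets averaged it was 1.39 (exact permutation p = 0.5). In animal 4 the Sln difference of 0.08 was smaller than the 0.29 of Pln 1388876_at. Pln was below the filter on every array, so these differences are given as a description only.

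The brightest probe sets of the pumps had mean differences of opposite sign. Atp2a2 at its brightest probe set, 1369065_a_at, had 998.5, 2768.5 and 2436.6 in ipsilateral muscles of animals 4, 5 and 6, against 1004.3, 896.1 and 1142.8 in contralateral muscles. Animals 5 and 6 lay above every contralateral value, while ipsilateral 4 lay among them. Its means were 2068 ± 941 ipsilaterally and 1014 ± 124 contralaterally (SD, n = 3 each), and its log2 difference was 0.89 (SE 0.26, 95% interval 0.32 to 1.47, limma adjusted p = 0.545). Without animal 4 it was 1.35 (limma adjusted p = 0.00128). Without animal 5 it was 0.54 and without animal 6 it was 0.8, and neither passed the adjusted threshold.

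The other probe sets of Atp2a2 did not show that difference. Probe set 1370426_a_at had 200.5, 251.1 and 158.0 ipsilaterally, against 208.2, 146.1 and 152.8 contralaterally, a log2 difference of 0.24 (SE 0.18, limma adjusted p = 0.847), and only animal 5 had a ratio far from 1, at 1.72. Probe set 1398862_at had 51.4, 64.5 and 81.7 ipsilaterally, against 55.2, 91.7 and 70.9 contralaterally, a difference of -0.11 (SE 0.17, limma adjusted p = 0.928). Probe set 1375164_at was below the filter, with 36.7, 20.7 and 32.0 ipsilaterally, against 27.5, 46.3 and 24.4 contralaterally. The groups overlapped for all 3. The gene makes several transcripts, and which of them each probe set reads was not analysed here.

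Atp2a1, the fast pump, had 5247.5, 4750.4 and 5618.7 in ipsilateral muscles, against 6180.7, 7261.8 and 5724.1 in contralateral muscles. Every ipsilateral value was below every contralateral one, though ipsilateral 6 and contralateral 6 were close, at a ratio of 0.982. Groups without overlap in this direction made up 5.78% of tested probe sets. The means were 5206 ± 436 ipsilaterally and 6389 ± 790 contralaterally (SD, n = 3 each), with a log2 difference of -0.29 (SE 0.13, limma adjusted p = 0.776). The probe set was near the top of the arrays' range, whose highest values ran from 6299 to 9181, and the difference was -0.15 after quantile normalization and -0.13 without animal 5.

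Set against each other within each animal, the Atp2a2 difference (1369065_a_at) exceeded that of Atp2a1 by 0.23, 2.22 and 1.11 in animals 4, 5 and 6. The mean was 1.19 ± 1.0 (SD, n = 3 animals), which is a 2.27-fold shift of the slow over the fast pump signal, with single animals at 1.17- to 4.66-fold. It was above 0 in 3 of 3 animals, with an exact permutation p of 0.25, again the smallest possible. In animal 4 it came from the lower Atp2a1 (-0.24), as Atp2a2 was level there (-0.0082). The mean was 0.53 when all 4 probe sets of Atp2a2 were averaged, and 0.67 without animal 5.

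**Figure D2:**
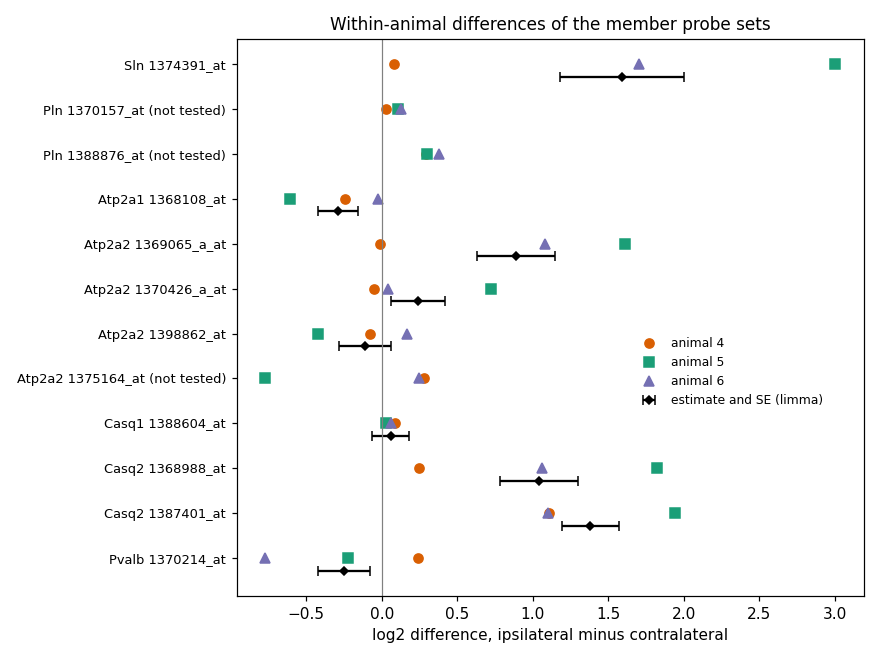
Log2 difference (ipsilateral minus contralateral, after the pseudocount) of each member probe set in each animal (coloured symbols), with limma's estimate and SE (black) for the 9 tested ones. Both probe sets of Casq2 lie to the right of 0 in all 3 animals, and the 4 probe sets of Atp2a2 differ among themselves.

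Of the calsequestrin genes, Casq2 had the larger differences. Casq2 at its brighter probe set, 1368988_at, had 262.7, 695.4 and 360.3 in ipsilateral muscles of animals 4, 5 and 6, against 218.9, 185.2 and 165.1 in contralateral muscles. Its dimmer probe set, 1387401_at, had 135.1, 378.9 and 141.5 ipsilaterally, against 54.2, 87.2 and 57.5 contralaterally. For both, every ipsilateral value was above every contralateral one, and animal 5 had the highest ipsilateral value. The means of the brighter probe set were 439.5 ± 227 ipsilaterally and 189.7 ± 27.2 contralaterally (SD, n = 3 each), with a log2 difference of 1.04 (SE 0.26, 95% interval 0.47 to 1.62, limma adjusted p = 0.442).

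The dimmer probe set of Casq2 was the member with the smallest p, ranking 2 of 9519. Its log2 difference was 1.38 (SE 0.19, 95% interval 0.95 to 1.82, limma adjusted p = 0.2), with 1.11, 1.94 and 1.1 in animals 4, 5 and 6. It was at least 1.5-fold higher in each animal, which 12 of 9519 tested probe sets were (0.126%), and no other member was. In animal 4 the brighter probe set of the same gene differed by only 0.25. Without animal 4 the log2 differences were 1.52 for the dimmer (limma adjusted p = 0.00396) and 1.44 for the brighter probe set (limma adjusted p = 0.00324). Without animal 5 they were 1.1 and 0.65 (limma adjusted p = 1.0 for both).

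Casq1, the main calsequestrin of fast fibres, was the steadiest member. It had 3317.1, 3158.3 and 3544.6 in ipsilateral muscles, against 3123.9, 3096.5 and 3393.4 in contralateral muscles, with ratios of 1.02 to 1.06. The groups overlapped, and the log2 difference was 0.06 (SE 0.12, 95% interval -0.2 to 0.32, limma adjusted p = 0.946). The Casq2 difference (1368988_at) exceeded that of Casq1 by 0.16, 1.79 and 0.99 in animals 4, 5 and 6, with a mean of 0.98 ± 0.82 (SD, n = 3 animals, exact permutation p = 0.25, the smallest possible). Without animal 5 the mean was 0.58.

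Pvalb, the cytosolic calcium buffer of fast fibres, had 5998.0, 4249.2 and 3586.2 in ipsilateral muscles of animals 4, 5 and 6, against 5093.8, 4963.1 and 6146.5 in contralateral muscles. The ipsilateral muscle was higher in animal 4, with a ratio of 1.18, and lower in animals 5 and 6, with ratios of 0.856 and 0.583. The means were 4611 ± 1246 ipsilaterally and 5401 ± 649 contralaterally (SD, n = 3 each). The log2 difference was -0.25 (SE 0.17, 95% interval -0.64 to 0.13, limma adjusted p = 0.832), and it was -0.5 without animal 4, 0.0059 without animal 6 and -0.11 after quantile normalization.

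**Figure D3:**
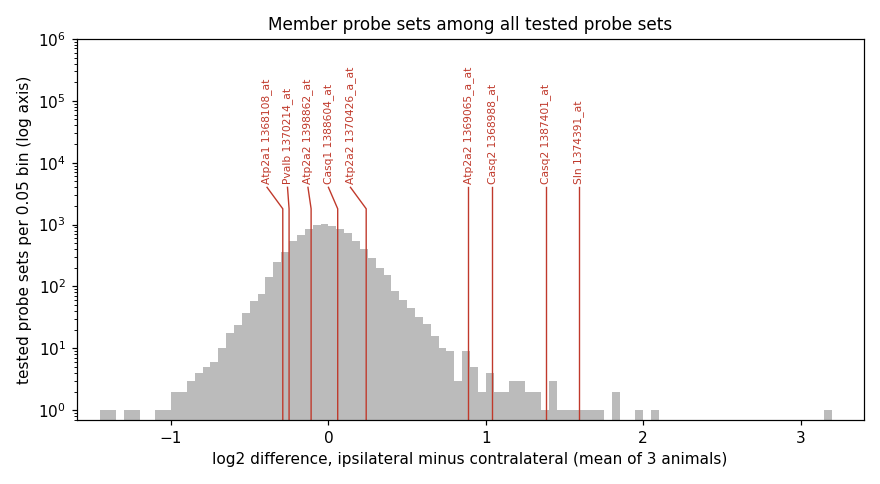
Number of tested probe sets (log axis) by log2 difference in bins of 0.05, with the 9 tested member probe sets marked by red lines. Sln, both probe sets of Casq2 and Atp2a2 1369065_a_at lie in the right tail, and the other 5 lie in the bulk.

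Leaving out animal 4, limma called 4 member probe sets, those of Sln, Casq2 (both) and Atp2a2 (1369065_a_at), against 241 of 9519 tested probe sets (2.53%). That fit had 1 residual degree of freedom, and 0 probe sets were called without animal 5 or without animal 6. Of 4 control probe sets for the cre hybridisation spike, AFFX-CreX-3_at read 1476 in ipsilateral 4 and 1117 in contralateral 4, the remaining 4 arrays being at 2481 to 3605, and AFFX-CreX-5_at was likewise lowest on both arrays of animal 4. The other pair of probe sets set only ipsilateral 4 apart: AFFX-r2-P1-cre-5_at read 2029 there and 3338.6 in contralateral 4, the remaining arrays being at 3257.2 to 4834.3. For actin, the 3' signal divided by that of the middle of the transcript, a sign of RNA quality, gave 2.87 in ipsilateral 6 and 2.77 in contralateral 4, with 1.36 to 1.68 elsewhere. The same ratio for GAPDH did not set these arrays apart, at 1.19 and 1.15, with 1.02 to 1.21 over all arrays. The spermatid markers Prm1, Tnp1 and Odf1 summed to 947, 165 and 412 in ipsilateral libraries of animals 4, 5 and 6, against 276, 82 and 112 in contralateral ones, with 3 of 3 higher at an unadjusted p under 0.05. The part of these features in the results was not tested.

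The promoters of the pump and calsequestrin genes are shown because the mean differences of each pair of genes were unlike in size or sign. RefSeq's promoter windows (GRCr8), of 250 bases before to 50 after the start, were matched for 6 of the 7 genes, all but Sln. Capitals mark matches to CANNTG, the E-box bound by muscle regulatory factors of the MyoD family, or to the motif of the muscle transcription factor MEF2, searched on both strands, and no match of one overlapped a match of the other.
Atp2a2, chr12:39733269-39733568, plus strand: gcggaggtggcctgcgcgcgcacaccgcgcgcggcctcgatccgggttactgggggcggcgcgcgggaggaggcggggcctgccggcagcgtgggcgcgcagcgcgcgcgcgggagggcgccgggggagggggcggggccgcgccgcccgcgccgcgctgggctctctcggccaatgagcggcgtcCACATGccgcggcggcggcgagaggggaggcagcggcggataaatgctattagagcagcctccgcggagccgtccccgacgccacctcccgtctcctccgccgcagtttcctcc
Atp2a1, chr1:190475361-190475660, minus strand: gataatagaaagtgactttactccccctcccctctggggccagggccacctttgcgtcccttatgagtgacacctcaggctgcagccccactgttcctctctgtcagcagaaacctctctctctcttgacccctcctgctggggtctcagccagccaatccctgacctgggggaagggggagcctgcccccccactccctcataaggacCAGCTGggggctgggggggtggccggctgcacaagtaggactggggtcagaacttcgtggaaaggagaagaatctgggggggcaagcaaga
Casq2, chr2:192214306-192214605, plus strand: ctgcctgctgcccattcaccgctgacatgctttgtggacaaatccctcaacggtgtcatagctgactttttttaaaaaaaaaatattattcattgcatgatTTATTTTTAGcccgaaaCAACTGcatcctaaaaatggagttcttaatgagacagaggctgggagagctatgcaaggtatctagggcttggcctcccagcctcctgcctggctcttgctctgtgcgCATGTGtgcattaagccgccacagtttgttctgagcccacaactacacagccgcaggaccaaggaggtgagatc
Casq1, chr13:87212661-87212960, minus strand: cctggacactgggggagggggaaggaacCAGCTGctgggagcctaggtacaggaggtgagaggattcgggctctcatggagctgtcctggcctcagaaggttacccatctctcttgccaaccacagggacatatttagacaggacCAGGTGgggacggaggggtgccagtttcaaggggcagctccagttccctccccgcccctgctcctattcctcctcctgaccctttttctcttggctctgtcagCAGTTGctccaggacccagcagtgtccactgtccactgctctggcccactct
The Casq2 window held a match to the MEF2 motif, at -149 to -140 from the start, which 3.29% of all 33469 windows of the same length held, and the other 5 members' windows held none. CANNTG matched once in Atp2a2 and in Atp2a1, in 2 places in Casq2 and Pln and in 3 places in Casq1 and Pvalb, and 72.1% of all windows held at least 1 match. TATAAA, a core promoter element, was in none of the 6 windows, against 14.2% of all windows, and GGAAA, the core bound by the calcineurin target NFAT, was in those of Atp2a1 and Atp2a2, against 62.7%. The Atp2a2 window was 79.0% G and C, above the 95th percentile of all windows (72.7%), and those of Atp2a1, Casq1 and Casq2 were 61.0%, 60.0% and 47.7%. These matches describe the letters of the windows only.

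Genes of fibre type were read beside the members. Myh7, the slow myosin heavy chain, had within-animal log2 differences of 0.47, 2.99 and 1.67 in animals 4, 5 and 6, and Tnni1, the slow troponin I, had 0.084, 2.2 and 1.47. Myh4, the fast IIb myosin heavy chain, had -0.3, -1.24 and -1.21. As with Sln, Atp2a2 (1369065_a_at) and Casq2 (1368988_at), animal 4 had the difference nearest to 0 for each of the 3 genes. Of 9 slow fibre genes tested, 7 were higher and 0 lower at an unadjusted p under 0.05, and their median log2 difference was 1.23. Of 10 fast fibre genes tested, 0 were higher and 3 lower, with a median of -0.23. The fast myosin heavy chains Myh2 and Myh1 did not share the sign of Myh4. They had 0.31 (SE 0.15, limma adjusted p = 0.776) and 0.21 (SE 0.14, limma adjusted p = 0.836), each higher in 2 of 3 animals. The fast list did not share the order of the animals, with medians of -0.27, -0.5 and 0.06 in animals 4, 5 and 6, and the slow list had medians of 0.3, 2.2 and 1.12, although its member Mb had -0.3, -0.24 and 0.24. Over all tested probe sets 340 were higher and 265 lower, with a median of -0.02. Not one of these 19 genes passed the adjusted threshold, and their part in the members' differences was not tested.

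**Figure D4:**
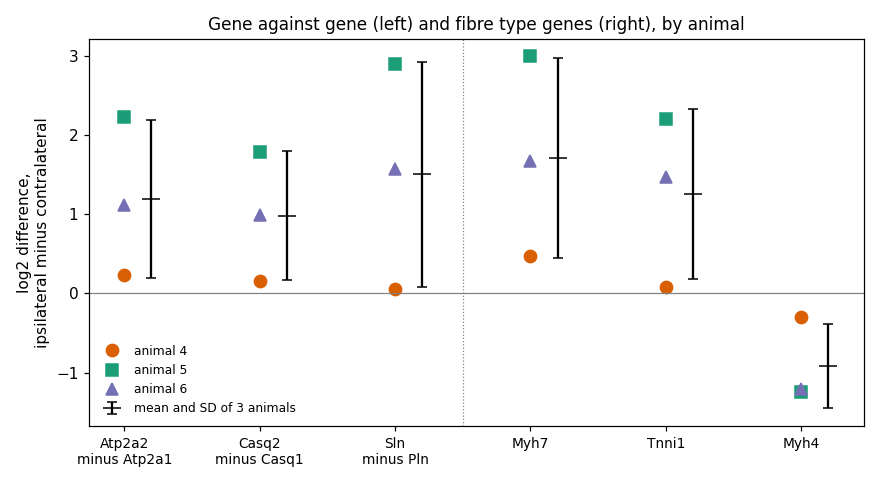
Left of the dotted line, the log2 difference (ipsilateral minus contralateral) of a gene minus that of its partner, in each animal, and right of it the log2 differences of 3 fibre type genes. Symbols are animals and bars are mean ± SD of 3 animals. Animal 5 is highest and animal 4 lowest in each of the 5 columns that lie above 0.

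Markers of other cells were measured because Atp2a2, Casq2 and Pln are also genes of the heart and of smooth muscle. The sum of 6 cardiac markers (Myh6, Nppa, Nppb, Tnnt2, Tnni3 and Myl7) was 95, 110 and 96 in ipsilateral muscles, against 81, 113 and 115 in contralateral muscles. Of these, 5 never exceeded the filter's intensity, Tnnt2 did so only in contralateral 5 (45.2), and none was at 0. The sum of 6 smooth muscle markers (Myh11, Acta2, Tagln, Cnn1, Smtn and Lmod1) was 643 to 735 ipsilaterally and 610 to 938 contralaterally, with overlap between the groups and 0 of 4 tested genes at an unadjusted p under 0.05. The 8 skeletal fibre markers, which include Acta1 and Ckm and were all tested, summed to 35872 to 40781 ipsilaterally and 40776 to 49293 contralaterally, with 1 lower at an unadjusted p under 0.05. That 1 was Myh4, which with Myl11, Tnnt3 and Tnnc2 was also on the fast list, and Mb was on the slow list. Adipocyte markers (4 on the array) summed to 1459 to 2345 ipsilaterally and 1023 to 1650 contralaterally, with 2 of 2 tested genes higher at an unadjusted p under 0.05. Schwann cell and nerve markers (4 on the array) summed to 843 to 912 ipsilaterally and 660 to 775 contralaterally, with 1 of 3 tested genes higher and 1 lower. Pmp22 was the higher one (log2 difference 0.4) and made up most of the sum, with means of 641.6 ipsilaterally and 484.5 contralaterally. Mbp was the lower one (-0.38), S100b had 0.3, and the dim Nefl, not tested, was lower in all 3 animals. Endothelial markers (3 on the array) summed to 407 to 633 ipsilaterally and 331 to 416 contralaterally, with 1 of 3 tested genes higher. Macrophage markers (5 on the array) summed to 1653 to 2192 ipsilaterally and 2178 to 2717 contralaterally, with 3 of 4 tested genes lower. Each sum adds intensities of different probe sets, which are not on a common scale, so the brightest ones weigh most. None of the marker genes passed the adjusted threshold. Their part in the members' differences was not tested.

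Other genes of calcium handling went both ways. Of 50 listed genes of calcium release, entry, export, buffering and signalling, 43 were on the array and 36 were tested. At an unadjusted p under 0.05, 2 were higher and 2 lower, or 4 of 36, against 6.36% of all tested probe sets. Without animal 4 the count was 11 of 36, against 1491 of 9519 tested probe sets, and without animals 5 and 6 in turn it was 1 and 2. In all 3 animals 4 were higher and 7 lower, and the median log2 difference was -0.0011. Over all tested probe sets 12.3% were higher and 15.1% lower in all 3 animals. None of the 36 passed the adjusted threshold.

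Rcan1, a regulator of the calcium-dependent phosphatase calcineurin, had the largest difference of the list. It had 334.2, 637.1 and 400.2 in ipsilateral muscles, against 230.1, 223.9 and 251.3 in contralateral muscles, without overlap, and a log2 difference of 0.86 (SE 0.20, limma adjusted p = 0.385). Camk2d, a subunit of the calcium/calmodulin-dependent kinase II, had 0.56 (SE 0.21, limma adjusted p = 0.73), with -0.11 in animal 4, and its dimmer probe sets gave -0.064 and 0.14. Calm2, which encodes the calcium sensor calmodulin, had -0.48 (SE 0.17, limma adjusted p = 0.668), with -0.038 in animal 4. Tmem38a, a potassium channel of the sarcoplasmic reticulum, had -0.32 (SE 0.12, limma adjusted p = 0.74), and its dimmer probe set gave -0.18, with 0.43 in animal 4.

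Some listed genes of the reticulum were also read for their role. Ryr1, the calcium release channel of the reticulum, had 0.24 (SE 0.13, limma adjusted p = 0.781), higher in all 3 animals. Mrln, which encodes myoregulin, a pump inhibitor of fast fibres related in structure to sarcolipin, had 0.05 (SE 0.15, limma adjusted p = 0.968). Srl, a luminal calcium-binding protein, had 0.04 (SE 0.14, limma adjusted p = 0.975), Hrc, another one, had -0.04 (SE 0.13, limma adjusted p = 0.966), and Trdn, which anchors calsequestrin to the release channel, had 0.03 (SE 0.15, limma adjusted p = 0.983). Jsrp1, a protein of the junctional reticulum, had -0.3 (SE 0.14, limma adjusted p = 0.776), lower in all 3 animals and without overlap between the groups. These 6 were chosen after their values were seen.

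**Figure D5:**
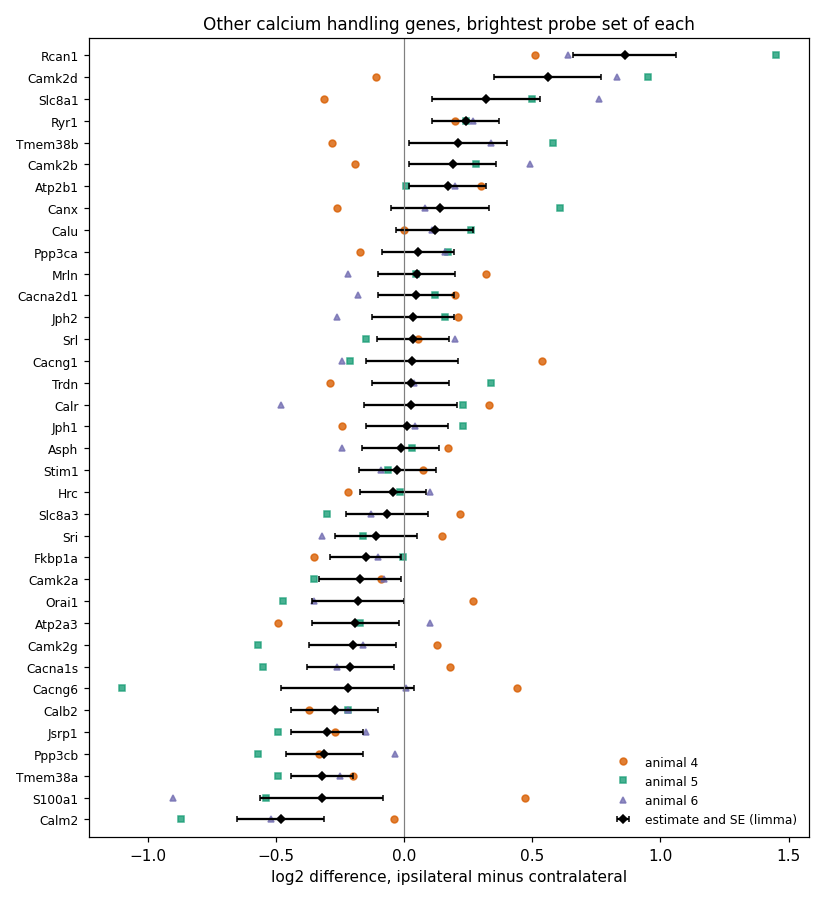
Log2 difference (ipsilateral minus contralateral) of the 36 tested genes of calcium handling other than the members, with each animal's value (symbols) and limma's estimate and SE (black). Rcan1 at the top has 0.86 and Calm2 at the bottom has -0.48, and most of the others lie near 0 with animals on both sides.

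The genes whose values ran most alike to each member over the 6 libraries were found by Pearson's r of log2 values, at its brightest probe set, among tested probe sets. For Sln they were Ppm1b, Orc4 and Zfp36l1 (r = 0.993 each), and for Pln LOC100912002 and Immt (0.99 each) and Ublcp1 (0.988). For Atp2a1 they were Lmod3 (0.997), Pgam2 (0.994) and Zswim7 (0.99), and for Atp2a2 Fbxo30 (0.997), Emcn (0.994) and Ttc27 (0.992). For Casq2 they were Meg3 (0.994), Cox7a1 (0.991) and Lats2 (0.99). For Casq1 they were Abt1 (0.99), Srrm2 (0.983) and Slc3a1 (0.972), and for Pvalb C1qc (0.997), Ahcy (0.985) and Trmt5 (0.984). The 6 libraries share 3 animals, and each gene was picked for having one of the highest r among all tested probe sets, so these values describe the libraries only. Of these genes Cox7a1, a subunit of the respiratory chain, had the largest difference, 1.05 (SE 0.26, limma adjusted p = 0.442), with 538.6, 1305.3 and 812.8 in ipsilateral muscles, against 483.0, 385.6 and 325.0 in contralateral muscles.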

How the data were processed

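The deposited values are linear intensities of each probe set. Every array had a trimmed mean of about 150, and the program and scaling used by the authors are not given in the sources used here. The number of arrays limits the precision. The 57 control probe sets of 15923 were not tested. Genes were named from an annotation of the platform, possibly outdated. A pseudocount of 15.8, the 20th percentile over the table, was added before taking log2. Array medians lay within 0.115 (log2), under the limit of 0.2, so no further normalization was made. Probe sets with a mean above the 40th percentile (an intensity of 42.4) were tested, 9519 in all, with limma 3.58.1 in R 4.3.3 (intensity trend, animal as a block, two-sided, Benjamini-Hochberg over all tested), after a test on simulated data. Pairs of genes were compared by an exact sign-flip test.

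Samples were paired because the muscles of both legs came from the same rat. Deviations of an animal's muscles from the group means correlated at -0.04, 0.07 and 0.13 over probe sets in animals 4, 5 and 6. The labels do not say how the RNA of each library was prepared beyond its muscle. The members, gene lists and tests were chosen with earlier results of these data known. Named genes were the members, listed calcium genes with an unadjusted p under 0.05, Myh7, Myh4, Tnni1, marker genes, and the 3 genes most correlated with each member. Ryr1, Mrln, Srl, Hrc, Trdn, Jsrp1, Myh1 and Myh2 fall outside this rule and were added after their values were seen. For genes with several probe sets, lists used the brightest. Alternatives covered the block, pseudocount, normalization, filter, variance trend, choice of probe set and each animal left out. Python 3.11.15 with matplotlib 3.10.9 drew the figures.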

Additional observations from a re-analysis of the deposited data

How the results depend on the processing

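No member probe set was called in limma's fit under the other pseudocounts, the other normalizations, without the filter, without the intensity trend or without the pairing by animal. Without the replicate block 0 probe sets were called and 564 had an unadjusted p under 0.05, against 605 with it, and the block changed no call. Leaving out 1 animal gave 0 to 241 calls over all probe sets, 223 to 1491 at an unadjusted p under 0.05, and 0 to 4 calls among the members, all of the calls without animal 4. Among the other calcium handling genes, the count at an unadjusted p under 0.05 was 1 to 11 with an animal left out, against 4. With an animal left out, Atp2a2 1370426_a_at ran from -0.0033 (without animal 5) to 0.38, Atp2a2 1398862_at from -0.25 to 0.045 (without animal 5) and Pvalb from -0.5 to 0.0059 (without animal 6), and the cause of these sign changes was not tested. Sln ranged from 0.89 to 2.35, the brighter Casq2 probe set from 0.65 to 1.44 and the dimmer one from 1.1 to 1.56 over the alternatives. Rcan1, Calm2, Camk2d, Myh7, Myh4 and Tnni1 passed the adjusted threshold only without animal 4. The 3 gene-against-gene means kept their sign in all alternatives run. Dim probe sets, such as those of Pln, are limited by background, and their differences are understated by the pseudocount.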
